A study of Aptenodytes patagonicus with 3 samples.

Results

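Heat shock transcription factors were examined in the pectoralis (the flight muscle of the breast, used to swim) of 3 artificially acclimated (AA) king penguin juveniles. The members were taken as all probe sets whose only gene symbol in the platform's annotation was HSF1, HSF2, HSF3, HSF4 or HSF5. This gave 9 probe sets of 4 genes, out of 36813 probe sets and 12913 named genes. HSF1 was not among the symbols of the annotation used here and was dropped. HSF2 had 2 probe sets, HSF3 had 3, HSF4 had 3 and HSF5 had 1. They are numbered here within a gene from the highest mean signal down, and the plot of their values by bird gives the identifier of each.

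Heat shock factors are the transcription factors that switch on chaperone genes when proteins unfold. The active form is a trimer that binds heat shock elements in the promoters of these genes, and chaperones such as HSP90 in turn hold the factors back. HSF3 was first described in the chicken as a heat-responsive factor of birds, alongside HSF1. HSF2 is best known from development and can form mixed trimers with HSF1 in mammalian cells. HSF4 is best known from the lens, and HSF5 from the male germ line of mammals.

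The juveniles were wild birds less than a year old at capture, which moulted in captivity, were fed mackerel and had never been in cold water before the experiment. They were then immersed 10 times for 5 hours, every 2 days over 3 weeks, in a tank at 8 °C. Birds 1 and 3 were labelled females and bird 2 a male, so a sex difference and a difference of that single bird cannot be told apart. The arrays of never-immersed and sea-acclimatized juveniles were not analysed here, and the values below describe differences among AA birds only. Each bird gave 1 biopsy and 1 Affymetrix Chicken Genome array, on which penguin RNA bound chicken probes. The values are log2 signals after quantile normalization, from 6.46 to 15.27.

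The labelled tissue was checked against markers. The skeletal alpha-actin gene ACTA1 read 15.27 in each bird, the top value of the arrays. Quantile normalization gives the top probe set of each array the same value, so this equality does not measure equal muscle content. Of the skeletal muscle and fast-fibre list, 7 of 8 measured markers lay in the top 25% of mean signal. Also there were 4 of 6 slow-fibre, 4 of 6 erythrocyte, 4 of 6 leukocyte and 3 of 5 adipocyte markers. Fewer were there of endothelium (2 of 5), lens (1 of 4) and male germ line (0 of 5). This share alone therefore does not single out muscle fibres. Erythrocyte RNA was also present, since the alpha-globin gene HBA1 read 14.83, 14.44 and 14.77 in birds 1, 2 and 3. The number of arrays limits the precision of every value below.

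Levels could not be compared between heat shock factors, because signal also varies with the match between penguin RNA and each chicken probe. The mean signals of the 2 HSF2 probe sets differed by 2.77 log2 units. Those of the HSF3 probe sets differed by up to 0.58 and those of the HSF4 probe sets by up to 2.97. Within each of these genes the probe sets carry the same symbol, but which penguin transcripts each of them binds was not tested. Birds were therefore compared within a probe set. Of the 9 probe sets, 3 had a mean below 7.88, the lower quartile of all probe sets. These were the dimmer probe set of HSF2, the dimmest of HSF4 and the one of HSF5.

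HSF2, which lies on chromosome 3 of the RefSeq king penguin assembly (bAptPat1.pri.cur), was lowest in the male on both probe sets. Probe set 1 of HSF2 read 10.63 in bird 1, 10.30 in bird 2 and 10.88 in bird 3 (10.60 ± 0.29, SD, n = 3). The male lay below both females, which differed from each other by 0.24. Probe set 2, of a type that may bind more than 1 transcript, read 7.95, 7.77 and 7.79 (7.84 ± 0.097, SD, n = 3). There bird 3 lay within 0.024 of the male, and bird 1 stood above both.

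HSF3, for which the assembly's gene table gave no match by symbol, was read differently by its 3 probe sets. Probe sets 1 and 3 are of the type that may bind more than 1 transcript, and probe set 2 is not. On probe set 2 it read 8.91 in bird 1, 7.81 in bird 2 and 8.49 in bird 3 (8.40 ± 0.55, SD, n = 3). The lowest bird was the male, and bird 1 was 2.14-fold above it. On probe set 1 it read 8.92, 9.10 and 8.54 (8.85 ± 0.28, SD, n = 3), where the male was the highest bird and bird 3 the lowest. On probe set 3 it read 8.39, 8.15 and 8.28 (8.27 ± 0.12, SD, n = 3), with the same order of birds as on probe set 2 but a range of 0.24 in place of 1.10. The chicken sequence behind each of the 3 probe sets carries an accession of its own, and which HSF3 transcripts they bind in penguin RNA was not tested.

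HSF4, on chromosome 11 of the same assembly, had its highest signal on probe set 1. The values there were 10.64 in bird 1, 10.94 in bird 2 and 10.49 in bird 3 (10.69 ± 0.22, SD, n = 3), so the male was the highest. On probe set 2, a type that may bind more than 1 transcript, the birds read 9.334, 9.330 and 9.331 (SD 0.0023, n = 3), a whole range of 0.0041. Only 10 of all 36813 probe sets had a smaller SD. On probe set 3 they read 7.52, 7.77 and 7.86 (7.72 ± 0.18, SD, n = 3), where bird 1 was the lowest and bird 3 the highest. Probe sets 1 and 3 of HSF4 thus gave different orders of the birds, and on probe set 2 the birds were nearly equal.

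HSF5, on chromosome 17, read 7.87 in bird 1, 7.65 in bird 2 and 7.85 in bird 3 on its only probe set (7.79 ± 0.12, SD, n = 3). The females lay within 0.022 of each other and the male below them. Its mean signal was higher than that of only 22.1% of all probe sets. Germ line genes on these arrays read from 6.99, for DAZL in bird 2, to 8.52, for SYCP1 in bird 2, and 3 of the 5 listed lay in the bottom 25% of signal.

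**Figure D1:**
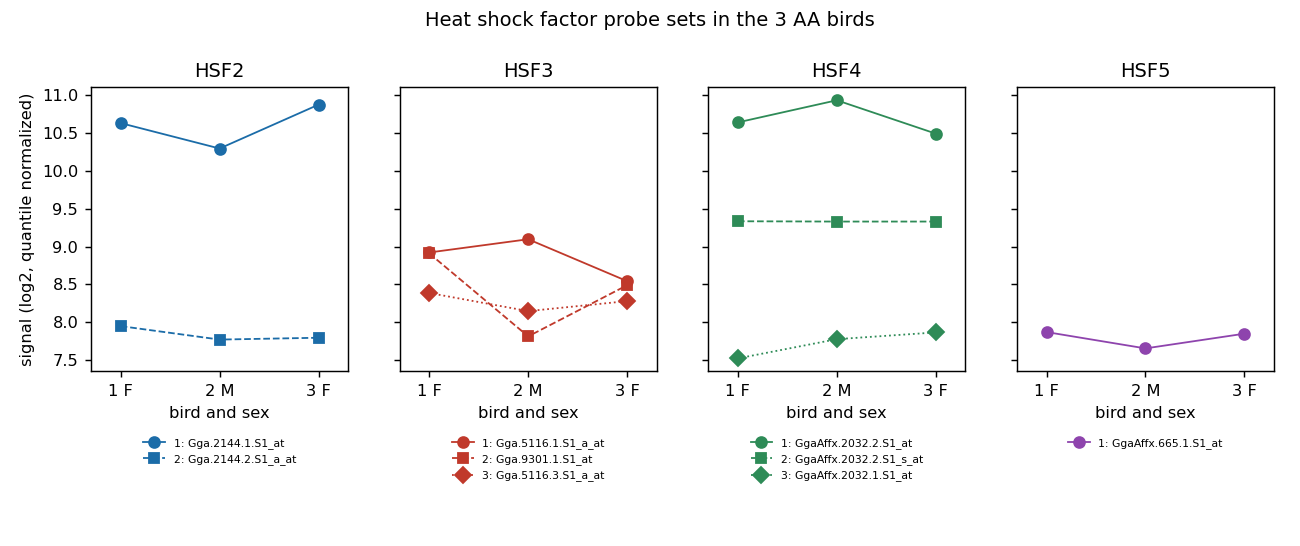
Log2 signal of the 9 heat shock factor probe sets in the 3 AA birds (F, female, M, male), with 1 panel per gene and 1 line per probe set. The male is the lowest bird on both HSF2 probe sets and on HSF5, and both the highest and the lowest on different HSF3 probe sets, while the middle HSF4 line is flat within 0.0041.

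The median SD over the birds was 0.18 for the 9 probe sets and 0.19 for all 36813, with 4 of the 9 above the latter and 5 below it. The range went from 0.0023 for HSF4 on probe set 2 to 0.55 for HSF3 on probe set 2. Among the 6082 probe sets with a mean within 0.25 of that of HSF3 probe set 2, 97.1% had a smaller SD. Among the 4143 within 0.25 of the mean of HSF4 probe set 2, 1 other probe set had a smaller SD than it. The median SD of the 9 probe sets was 0.14 without bird 1, 0.11 without bird 2 and 0.17 without bird 3. These medians are over 2 birds, so they cannot be compared directly with the 0.18 over 3. They were not set beside those of all probe sets. Over the brightest probe set of each of the 4 genes the median SD with all 3 birds was 0.25, beside 0.20 over all named genes read in this way.

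The male was set against the females with limma across all probe sets. The fit had 1 residual degree of freedom and took the lone male to vary as the females did. None of the 9 heat shock factor probe sets passed an adjusted p of 0.05 (0 of 9), beside 0.00% of all 36813 probe sets. At an unadjusted p under 0.05 the count was 1 of 9, against a background of 9.78%. That 1 was probe set 2 of HSF3, with a difference of -0.89 on the log2 scale between the male and the female mean (95% interval -1.49 to -0.29, standard error 0.26 and adjusted p = 0.316, both from limma). This is a 1.85-fold lower signal in the male. It was also the only one more than 0.5 log2 units below the female mean, as were 8.50% of all probe sets, and 0 of 9 were more than 0.5 above it, as were 5.01%.

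On HSF3 probe sets 1 and 3 the male differed by 0.36 (95% interval -0.22 to 0.95) and by -0.19 (95% interval -0.72 to 0.34). HSF2 differed by -0.46 (95% interval -1.01 to 0.09) on its brighter probe set and by -0.10 on the other. HSF4 differed by 0.37 (95% interval -0.17 to 0.90) on its brightest probe set, by 0.08 on the dimmest and by -0.0021 on the remaining one. HSF5 differed by -0.21 (95% interval -0.73 to 0.32). All of these intervals include 0 and reach over 0.5 log2 units to at least 1 side, so they do not show equal levels. The adjusted p from limma ran from 0.316 to 0.999 over the 9 probe sets. Against bird 1 alone and bird 3 alone, the male differed on HSF3 probe set 1 by 0.18 and 0.55, and on HSF2 probe set 2 by -0.18 and -0.024. On HSF4 probe set 3 the sign changed, with 0.25 from bird 1 and -0.089 from bird 3.

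**Figure D2:**
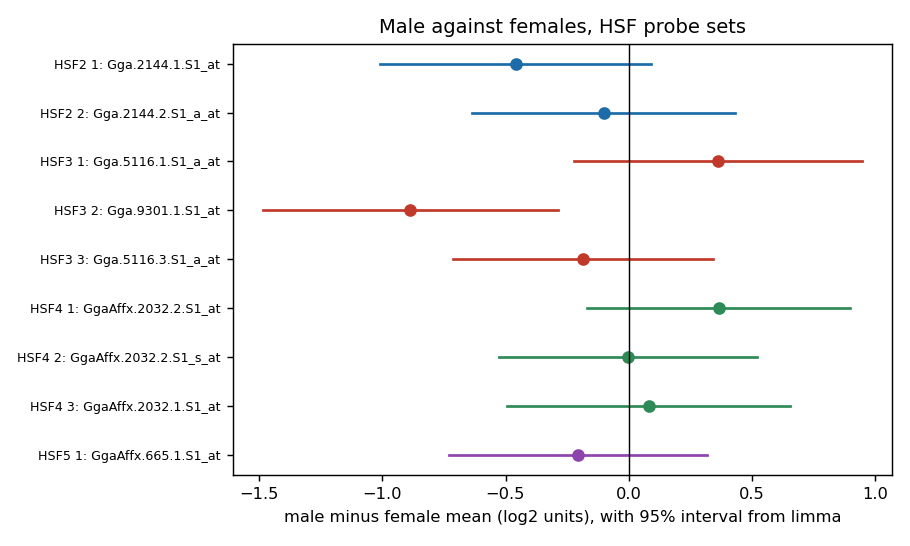
Difference of the male from the mean of the 2 females (log2 units) for each heat shock factor probe set, with the 95% interval from limma. The interval of HSF3 on probe set 2, from -1.49 to -0.29, is the only 1 of the 9 that leaves out 0. The intervals are not adjusted, and 9.78% of all probe sets had an unadjusted p under 0.05.

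The male was the lowest bird on 6 of the 9 probe sets, against 31.2% of all probe sets, bird 3 on 2 and bird 1 on 1. The 6 included both probe sets of HSF2, that of HSF5, probe sets 2 and 3 of HSF3, and probe set 2 of HSF4, where the birds were nearly equal. By the brightest probe set of each gene, the male was lowest for HSF2 and HSF5 and highest for HSF3 and HSF4. The members were chosen with earlier results of these data known, so the count does not test a lower level in the male. Probe sets annotated to 1 gene may share its RNA and cannot be taken as independent. Over the 1935 genes with 3 probe sets, the difference of the male varied between probe sets by a median range of 0.47, and 69.6% of these genes had probe sets of both signs. HSF3, with a range of 1.25, exceeded 94.9% of these genes, and HSF4, with 0.37, exceeded 35.5%. For HSF2 the range was 0.36, larger than in 56.3% of the 3624 genes with 2 probe sets.

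With birds as the only points, many genes matched the pattern of the brightest probe set of each heat shock factor. The other probe sets of HSF2, HSF3 and HSF4 ordered the birds differently, and no neighbours were sought for them. Likeness was the root mean square difference, over the 3 birds, of the deviations from each gene's own mean, on the brightest probe set of each gene. PRRC2C (0.0031) and KHDRBS1 (0.0080) were nearest to HSF2. HHIP (0.0040) and TNFAIP6 (0.0057) were nearest to HSF3, CCP110 (0.0046) and MYO1E (0.0052) to HSF4, and CLYBL (0.0042) and NELFB (0.0043) to HSF5. Within 0.05 lay 180 of 12912 genes for HSF2, 225 for HSF3, 498 for HSF4 and 438 for HSF5.

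Target genes of the heat shock factors, mainly chaperones and their co-factors, were read from the brightest probe set of each gene. Of the 25 listed, 22 were measured, and DNAJB1, PTGES3 and UBB had no probe set with that single symbol. The list was chosen with the low chaperone values of bird 2 already known. Its counts and median therefore do not test whether these genes are low in that bird. Of the 22, 16 lay in the top 25% of mean signal, and the shares of all named genes below were not matched for signal. In the male, 17 of the 22 were below the female mean and 5 above, beside 45.0% of all named genes below it. The median difference was -0.37 on the log2 scale, beside 0.04 over all 12913 named genes. By more than 0.5 log2 units, 9 of the 22 were below and 0 were above, beside 11.0% and 5.95% of all named genes. The male was the lowest bird for 14 of the 22, beside 32.5% of all named genes. In limma 0 of the 22 passed after adjustment and 8 had an unadjusted p under 0.05, beside 12.5% of all named genes. With only the probe sets designed for a single transcript, the median over the target genes was -0.22. In bulk muscle, fewer cells of a type and less RNA per cell cannot be told apart.

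HSP90AA1, the inducible HSP90 that binds heat shock factors, read 12.45 in bird 1, 10.80 in bird 2 and 12.48 in bird 3. The females read nearly the same and the male was 3.17-fold lower, a log2 difference of -1.66 with a standard error of 0.23 (adjusted p = 0.135 in limma). Its other probe set, of the type that may bind more than 1 transcript, read 11.17, 9.39 and 11.35, again with the male lowest. HSPA4L, an HSP110-type nucleotide exchange factor for HSP70, read 11.26, 9.54 and 10.45, with a log2 difference of -1.32 (adjusted p = 0.25 in limma). The male was lowest on its other probe set too, which is of the same type, at 8.33 against 10.29 and 9.41. AHSA1, which stimulates the ATPase of HSP90, read 11.12, 10.39 and 11.28, but its dimmer probe set read 8.18, 8.54 and 8.54, where the male was not lower.

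HSPA8, the constitutive HSP70 of the cytosol, read 13.56 in bird 1, 12.96 in bird 2 and 13.67 in bird 3. The male was 1.57-fold below the female mean. At the other end of the list DNAJB4, a J-domain co-chaperone, read 10.12, 10.32 and 9.91, the small heat shock protein gene HSPB9 read 11.50, 11.86 and 11.77, and HSPH1, an HSP110 chaperone, read 6.98, 7.21 and 7.24. On 2 of these 3 genes the male was the highest bird. Of the 4 probe sets of DNAJB4, the other 3 put the male below the female mean, by 0.20 to 0.57 log2 units, and the dimmer one of HSPB9 also put it below, by 0.03. HSPH1 lay in the lowest 5.24% of signal. The HSPA8 probe set and the brighter one of HSPB9 are of the type that may bind more than 1 transcript.

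**Figure D3:**
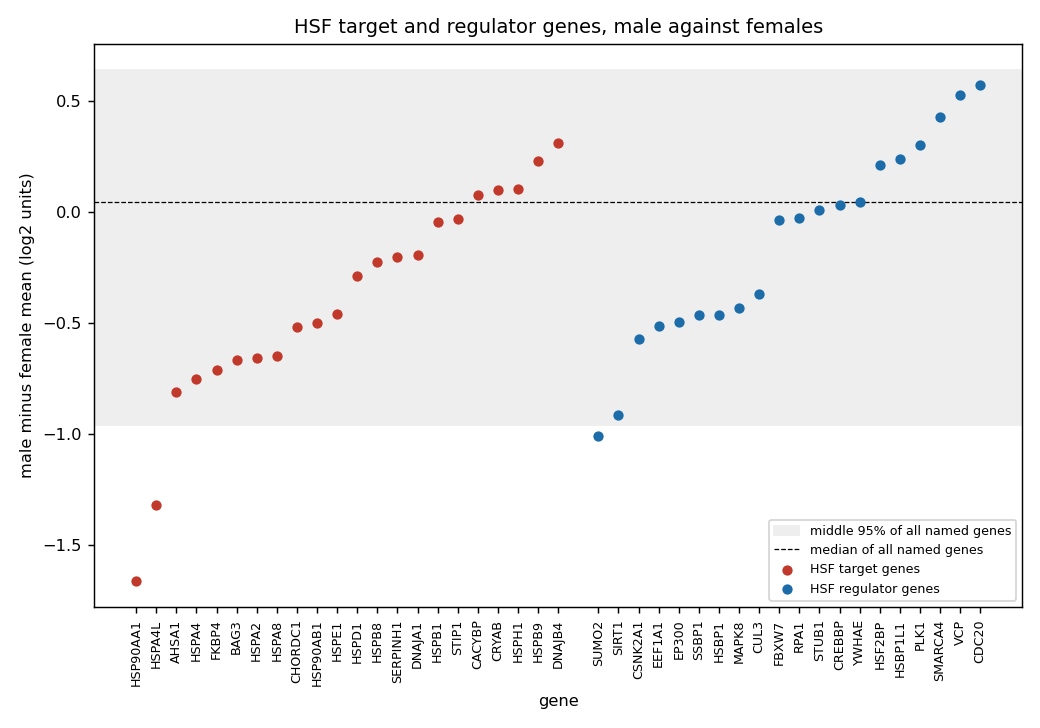
Difference of the male from the female mean (log2 units) for 22 target genes and 20 regulator genes of the heat shock factors, each by its brightest probe set. The grey band holds the middle 95% of all 12913 named genes and the dashed line is their median of 0.04. HSP90AA1 at -1.66 and HSPA4L at -1.32 lie below the band.

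Genes whose products act on heat shock factors lay on both sides of the female mean in the male. Of the 30 listed, 20 were measured, 11 of them below the female mean in the male and 9 above. Among all named genes, 45.0% were below it. The median difference of the 20 was -0.03 on the log2 scale. By more than 0.5 log2 units, 4 were below and 2 above, beside 11.0% and 5.95% of all named genes. In limma 0 of the 20 passed after adjustment and 4 had an unadjusted p under 0.05, beside 12.5% of all named genes, the smallest adjusted p being 0.235. With only the probe sets designed for a single transcript, the median was -0.26.

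SUMO2, a modifier protein that is attached to heat shock factors in human cells, read 12.55, 11.42 and 12.31 in birds 1, 2 and 3, with the male lowest. Its dimmer probe set read 7.59, 7.86 and 7.45, with the male highest. SIRT1, a deacetylase that prolongs DNA binding of HSF1 in human cells, read 9.91, 8.83 and 9.58. The male was lowest on 2 of its 3 probe sets. CSNK2A1, the catalytic subunit of casein kinase 2, read 9.56, 8.99 and 9.57. The only probe set of CSNK2A1 and the brighter one of SUMO2 are of the type that may bind more than 1 transcript.

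HSBP1, which binds the trimer of heat shock factor 1 and represses it, read 10.78, 10.24 and 10.62. Its dimmer probe set read 7.21, 7.71 and 7.27, with the male highest in place of lowest. In the opposite direction CDC20, an activator of the ubiquitin ligase that degrades HSF2 in human cells, read 10.13, 10.82 and 10.37. Its only probe set is of the type that may bind more than 1 transcript. VCP, a segregase of ubiquitinated proteins, read 12.95, 13.93 and 13.86, where bird 1 stood apart and not the male. Its dimmer probe set read 8.63, 7.97 and 8.19, with the male lowest. SMARCA4, a chromatin remodelling ATPase, read 7.19, 7.61 and 7.18.

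Erythrocyte markers lay on both sides of the female mean in the male, with a median below it. Of the 11 listed, 6 were measured and 4 of them were below the female mean in the male, beside 45.0% of all named genes. The median difference of the 6 was -0.43, and their mean log2 level was 12.56, 11.95 and 12.18 in birds 1, 2 and 3. The females also differed, with a median of 0.40 for bird 1 minus bird 3. HBA1 and the globin gene HBE were nearly level in the females, HBE reading 14.23, 13.74 and 14.27. The females were not level on the globin gene HBAD, which read 14.95, 14.06 and 14.41. CA2, which encodes a carbonic anhydrase, read 12.59, 10.78 and 11.70, with bird 3 between the others. EPB42 read 9.51, 9.67 and 9.13, with the male highest. SLC4A1 read 9.22, 9.02 and 8.79, where the male lay 0.008 above the female mean. Slow-fibre markers had a median difference of -0.15, with 3 of 6 below the female mean, among them the myosin light chain gene MYL3, which read 11.44, 10.56 and 11.47. The other 3 were above it, among them MYL2 at 7.55, 7.70 and 7.18 and TNNC1 at 14.11, 14.23 and 14.12. Endothelial markers had a median of 0.01, with 2 of 5 below, among them VWF at 10.88, 10.15 and 10.88. The other 3 were above, among them CDH5 at 7.48, 7.91 and 7.53. Markers of the skeletal muscle and fast-fibre list had a median of 0.03, with 3 of 8 below the female mean, 4 above and ACTA1 equal through the normalization. Those above included MYLPF at 12.34, 13.35 and 12.83, and those below MYBPC2 at 9.56, 9.60 and 10.29. Adipocyte markers had a median of 0.16, with 3 of 5 above the female mean, and those of leukocytes 0.24, with 5 of 6 above it. In limma 0 genes of these lists passed after adjustment. The part of any of these cell types in the heat shock factor or target values was not tested.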

How the data were processed

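Pectoralis RNA of 3 AA birds was hybridized to 1 array each. By the study's methods, MaxRS, which was developed for hybridization across species, gave 1 signal per probe set. The authors deposited log2 values after quantile normalization, and these were used unchanged. Limma is named in the submitters' processing notes with no version. Which arrays were normalized together was not stated. Of 36813 probe sets, 26041 carried 1 gene symbol in the platform's annotation, 170 several and 10602 none. Genes outside the members were read from their brightest probe set, by mean signal.

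The male was compared with the females with limma 3.58.1 (lmFit and eBayes, R 4.3.3) on all probe sets, with Benjamini-Hochberg adjustment and a threshold of 0.05. The prior had 7.35 degrees of freedom. The p-values rest on the spread between the females, 1 biopsy each, and on this prior. Python 3.11.15 was used for counts, SDs and medians. No Affymetrix control probe set (0) was among the values, so RNA degradation was not checked here. The study's methods describe a check of RNA integrity on a Bioanalyzer.

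All member probe sets are given. Of the target and regulator lists, the 3 genes most below and the 3 most above the female mean in the male were named, with HSBP1, HSPA8, HSP90AA1, DNAJB1 and HSPH1 where measured. Members and lists were chosen with earlier results of these data known, among them the low chaperone values of bird 2. One gene of the target list is not reported here. It had no probe set with that single symbol, and no count or median rests on it. Alternatives were other normalizations, filters on dim or unspecific probe sets, an intensity trend, other probe set summaries and leaving out a bird.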

Additional observations from a re-analysis of the deposited data

How the results depend on the processing

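The number of heat shock factor probe sets called for the male was 0 in limma under quantile normalization run again, median centring, removal of the dimmest 25% of probe sets (6 left), removal of probe sets not specific to a single transcript (5 left) and an intensity trend, with 1 at an unadjusted p under 0.05 each time. Over all probe sets the number called was 0 in the first 3 of these, 5 without unspecific probe sets and 2 with the trend. The 27 single differences under both normalizations and the trend kept their sign and stayed above the threshold, with adjusted p from 0.304 to 0.999. For HSF4 probe set 3 the difference was -0.089 without bird 1 and 0.25 without bird 3, a change of sign. The median SD ranged from 0.11 (without bird 2) to 0.17 when 1 bird was left out, over 2 birds and so not directly comparable with that over 3. With all 3 birds it was 0.25 without the dimmest probe sets, 0.22 without the unspecific ones and 0.25 with the brightest of each gene. The number of probe sets lowest in bird 2 was 3 of 5 without the unspecific ones. There the target median was -0.22 and the regulator median -0.26. Without the dimmest 25% the target median was -0.48, and with the mean of all probe sets of a gene the regulator median was -0.082. Without 1 female the target median was -0.415 to -0.416 and the regulator median -0.10 to -0.060. The cause of these shifts was not tested. Without the male no difference exists. No paired analysis was possible because the 3 birds form 1 group.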
